A study of Bos taurus with 138 samples.

Results

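The mitochondrial ribosomal protein genes of the cow were followed gene by gene through the end of oocyte maturation and preimplantation development. Members were all rows of the count table whose symbol begins with MRPL or MRPS followed by a digit, which gave 77 of 16706 gene symbols, 48 of the large subunit (MRPL) and 29 of the small subunit (MRPS) by symbol. All 77 passed the filter on low counts and all 77 matched a bovine gene symbol in RefSeq. The stages were germinal vesicle (GV) oocytes, metaphase II (MII) oocytes, 2-cell embryos, 8-cell embryos, morulae and blastocysts. All of them came from cumulus-oocyte complexes of slaughterhouse ovaries. MII oocytes had been matured in vitro, and embryos had in addition been fertilised in vitro with frozen semen of 1 Holstein bull and cultured in vitro. Every group was exposed to cycloheximide, which holds ribosomes on mRNA, before collection. At each stage, 2 gradients (A and B), each of about 100 oocytes or embryos, were cut into 10 sucrose fractions, F1 to F10, and 3 pools of 20 whole oocytes or embryos (A, B and C) gave the transcriptome. The study's methods class F1 and F2 as free RNA, F3 to F5 as monosomes and F8 to F10 as polysomes, with F6 and F7 between them.

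Mitochondrial ribosomes translate the few proteins encoded in mitochondrial DNA, which are subunits of the respiratory chain and of ATP synthase. Their RNAs are made in the mitochondrion, whereas all of their proteins are encoded in the nucleus, translated in the cytoplasm and imported. The large subunit joins amino acids and releases the new chain through an exit tunnel, and the small subunit binds and decodes the mRNA. Some members descend from bacterial ribosomal proteins, and others have been gained in the mitochondrial lineage. Full-grown oocytes and early embryos carry many mitochondria and rely on stored maternal mRNA until the embryonic genome becomes active, which in cattle occurs mainly around the 8-cell stage.

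The 120 fraction libraries held 1229382 to 17342859 counts (median 10334106) and the 18 transcriptomes 3269386 to 11812567 (median 10399576). Members took 0.672% to 2.38% of the counts of a fraction and 0.557% to 1.38% of those of a transcriptome. In the fractions of 8-cell embryos, 5.91% of the member values were 0, against 0.130% to 0.844% at the other stages and none in the transcriptomes. Oocyte markers (8 genes) summed to 17622 to 23920.4 CPM (counts scaled to a common library total) in GV transcriptomes and to 30.7 to 115 in those of morulae and blastocysts, and trophectoderm markers (6 genes) to 5015 to 5437 in those of blastocysts and 87.8 to 350 elsewhere. All 10 fibroblast and stroma markers were above 0 in 1 or more transcriptomes of 8-cell embryos, of morulae and of blastocysts. In the 8-cell transcriptomes they summed to 2118 to 13666 CPM (median 2280), against 12.5 to 114 in those of the other stages. The same list summed to 292 to 1098 in the 8-cell F8 to F10 libraries, and its part in the 8-cell results was not tested. Cumulus and granulosa markers (9 genes) summed to 375 to 759 CPM in transcriptomes of GV oocytes, MII oocytes and 2-cell embryos. In those of the later stages they summed to 18.5 to 299, and the part of this list was not tested. CPM are shares of a library, so a higher value is a larger share of the poly(A)-primed RNA and not necessarily more RNA per embryo, and at the blastocyst stage fewer cells of a type and less RNA per cell cannot be told apart.

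Levels in this and the following paragraphs are CPM scaled with TMM factors over 30 libraries, the 18 transcriptomes and 12 polysome pools in which the counts of F8, F9 and F10 of a gradient were summed. No transcript lengths were used, so levels are compared within a gene and not between genes. The summed transcriptome level of the 77 genes was 9933 to 13219.5 CPM at the GV stage, 7792 to 9413 at the MII stage, 4869 to 5401 at the 2-cell stage, 7965 to 10038 at the 8-cell stage, 12276 to 13059.5 at the morula stage and 6292 to 7737 at the blastocyst stage. The 2-cell range lay below that of every other stage. Single members followed this order to different degrees. The mean transcriptome level was highest at the morula stage for 42 members, at the GV stage for 15, at the MII stage and at the blastocyst stage for 9 each and at the 8-cell stage for 2, and it was lowest at the 2-cell stage for 30 and at the MII stage for 28. These counts were not taken over all genes.

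**Figure D1:**
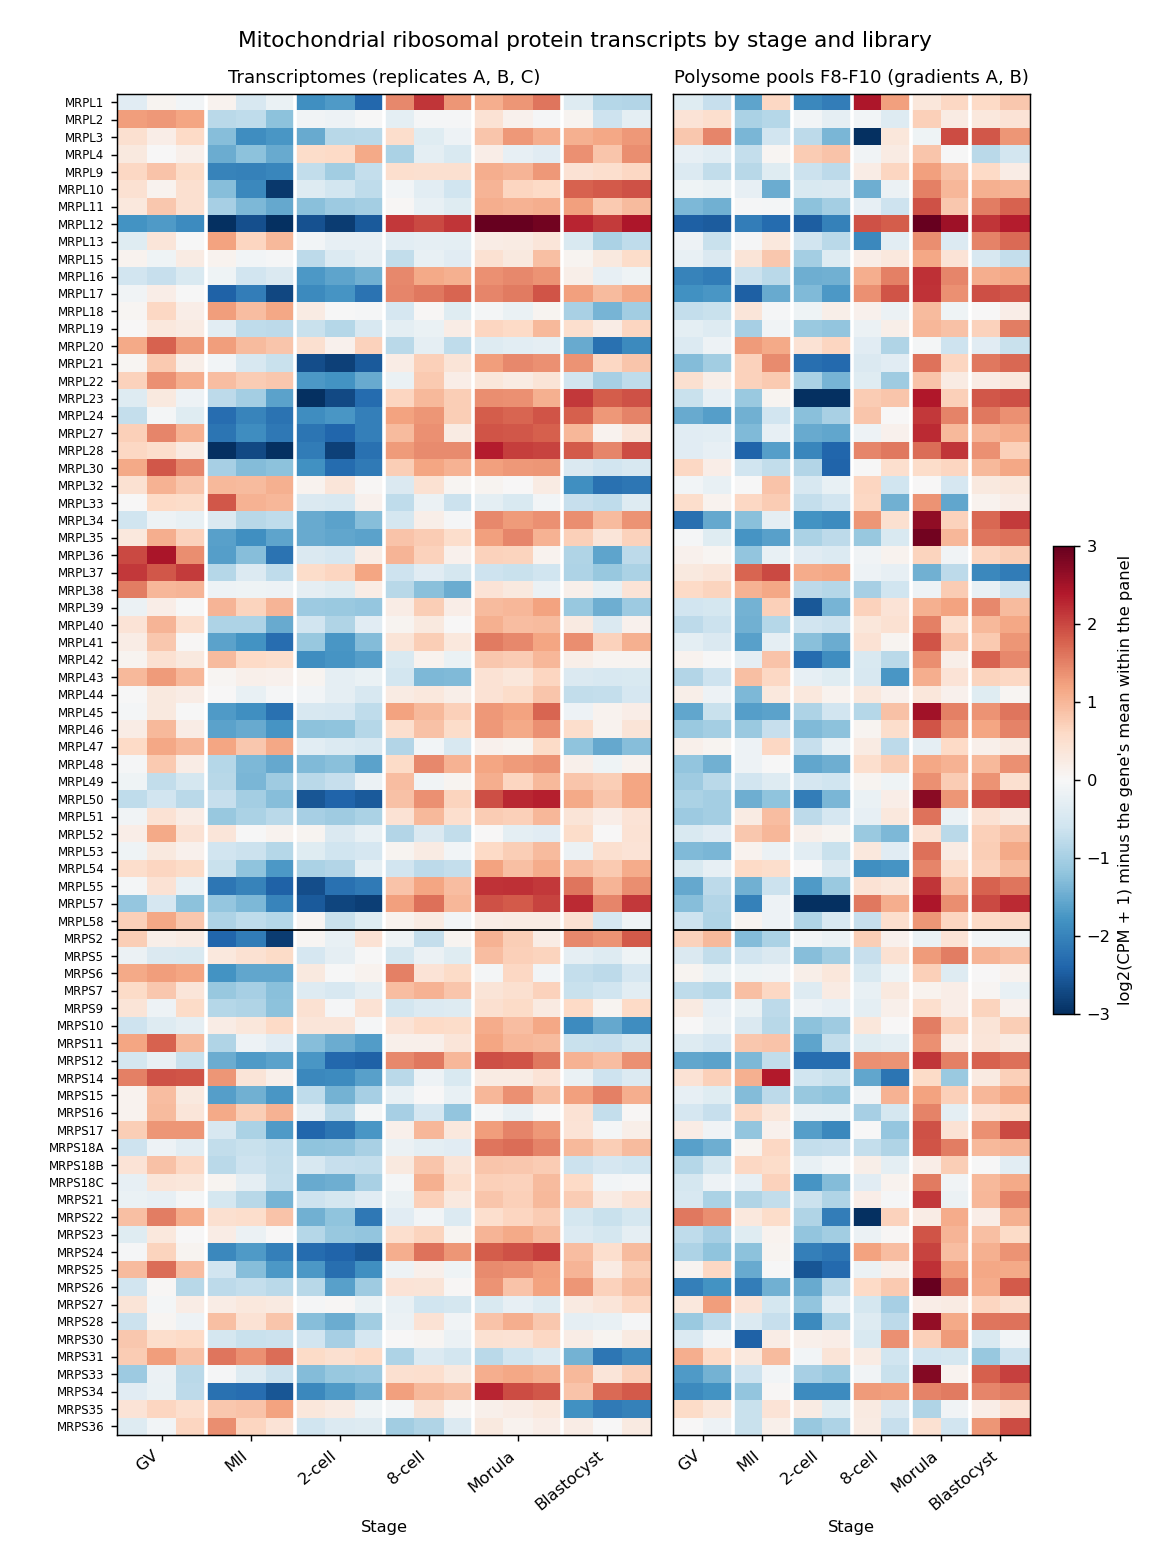
Heat map of the 77 members (rows, MRPL above the line and MRPS below it) in the 18 transcriptomes and the 12 polysome pools (columns). Colour shows log2(CPM + 1) minus the mean of the gene within the panel, limited to a range of 3 in either direction. Most rows are highest at the morula stage in both panels (42 members in the transcriptome, 40 in polysomes by mean level).

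Between GV and MII oocytes, 38 of the 77 members fell in the transcriptome and 0 rose, at an adjusted p below 0.05 and a fold above 2 in the edgeR model of all 14612 genes. Of all genes, 10.5% fell and 6.61% rose. The median member changed by -1.10 on the log2 scale against 0 over all genes. At an unadjusted p below 0.05, 52 members differed, a count not taken over all genes. DESeq2 called 3 higher and 38 lower. MRPL28, a homologue of a bacterial large-subunit protein, had 60.0, 55.3 and 46.2 CPM in the 3 GV transcriptomes and 2.40, 5.07 and 1.67 in the 3 of MII oocytes (log2 fold change -4.13, SE 0.35, edgeR adjusted p = 7.9e-09). MRPL36, the small zinc-binding protein of the large subunit, had 49.8, 69.6 and 32.5 CPM and then 3.09, 4.26 and 1.78 (log2 fold change -4.05, SE 0.42, edgeR adjusted p = 1.9e-07). For both genes each MII value lay below each GV value by a wide margin. Of the 48 MRPL genes 25 fell, and of the 29 MRPS genes 13 fell.

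From MII oocytes to 2-cell embryos the members split, with 10 higher and 20 lower (6% and 5.96% of all genes) and a median log2 fold change of -0.23. This count depended on replicate C, since without the C transcriptomes of every stage the number of called members was 14. MRPS2, a homologue of bacterial S2 in the small subunit, had 3.32, 4.26 and 2.14 CPM at the MII stage and 22.5, 18.4 and 29.6 at the 2-cell stage (log2 fold change 2.85, SE 0.32, edgeR adjusted p = 2.3e-06). MRPL4, near the exit tunnel of the large subunit, had 6.75, 8.21 and 6.66 and then 30.7, 32.1 and 46.9 CPM (log2 fold change 2.34, SE 0.30, edgeR adjusted p = 1.0e-05). Both sets of 3 values were apart. MRPS6, a further homologue of a bacterial small-subunit protein, also rose (log2 fold change 1.79, edgeR adjusted p = 1.7e-04). In the other direction, MRPS14 had 407, 210.2 and 180.2 CPM at the MII stage and 41.2, 42.6 and 51.3 at the 2-cell stage (log2 fold change -2.56, SE 0.39, edgeR adjusted p = 7.0e-05). MRPL22, a protein of the exit tunnel, had 311, 277 and 286 and then 48.5, 46.5 and 56.2 CPM (log2 fold change -2.53, SE 0.28, edgeR adjusted p = 1.8e-06). The split of the calls turned with the scaling. With library totals in place of TMM factors, which moved the median of all genes by 0.46, 20 members were called higher and 9 lower and the median member changed by 0.27.

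Between 2-cell and 8-cell embryos, 38 members rose and 5 fell in the transcriptome, at a transition in which 26.6% of all genes rose and 23.5% fell. The median log2 fold change of the members was 1.15 and that of all genes 0.03. The stroma markers summed to more in these 8-cell transcriptomes (2118 to 13666 CPM) than at any other stage, and their part was not tested. MRPL12, whose product forms the flexible stalk of the large subunit, had 2.81, 2.24 and 3.08 CPM at the 2-cell stage and 99.9, 90.3 and 102 at the 8-cell stage (log2 fold change 5.16, SE 0.29, edgeR adjusted p = 3.7e-12). MRPL57 had 2.05, 1.60 and 1.504 and then 40.4, 54.4 and 34.4 CPM (log2 fold change 4.64, SE 0.46, edgeR adjusted p = 1.5e-08). In both genes the 8-cell values lay far above those of 2-cell embryos. Those that fell included MRPL4 (log2 fold change -1.39, edgeR adjusted p = 2.9e-04), MRPL37, a protein without a bacterial counterpart (-1.31, adjusted p = 1.3e-05), and MRPS31 (-1.17, adjusted p = 9.4e-04).

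From 8-cell embryos to morulae 15 members rose and 0 fell (6.6% and 7.75% of all genes), with a median log2 fold change of 0.64. The number called was 25 without replicate B, which removed the transcriptomes and the polysome pools of that letter. It was 5 without the C transcriptomes. MRPS18A had 47.0, 42.9 and 41.8 CPM at the 8-cell stage and 163, 172 and 151 at the morula stage (log2 fold change 1.88, SE 0.21, edgeR adjusted p = 1.2e-06), and MRPL54 had 20.6, 17.7 and 18.5 and then 73.1, 59.3 and 68.1 (log2 fold change 1.82, SE 0.28, edgeR adjusted p = 7.7e-05). From morulae to blastocysts the direction turned, with 26 members lower and 2 higher (11.4% and 10.2% of all genes; median -0.65), or 14 called without transcriptome C. MRPS10 had 712, 623 and 742 CPM at the morula stage and 88.2, 114 and 89.0 at the blastocyst stage (log2 fold change -2.83, SE 0.24, edgeR adjusted p = 1.8e-08). MRPL39, a mitochondria-specific protein of the large subunit, had 467, 482 and 561 and then 110.0, 87.1 and 113 CPM (log2 fold change -2.29, SE 0.38, edgeR adjusted p = 8.3e-05). The 2 that rose were MRPL4, with 24.2, 17.3 and 16.3 CPM at the morula stage and 55.3, 37.7 and 56.0 at the blastocyst stage (log2 fold change 1.37, SE 0.29, edgeR adjusted p = 0.001), and MRPL10, which anchors the stalk formed by MRPL12, with 44.4, 34.0 and 33.1 and then 75.6, 79.2 and 82.6 (log2 fold change 1.09, SE 0.38, edgeR adjusted p = 0.037).

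In 10 members no transition of the transcriptome was called, namely MRPL3, MRPL15, MRPL19, MRPL49, MRPL52, MRPL53, MRPS21, MRPS22, MRPS27 and MRPS30. The share of such genes among all genes was not taken. MRPS27, an RNA-binding protein of the pentatricopeptide repeat family, had 64.2, 46.7 and 56.8 CPM at the GV stage, 41.7, 31.9 and 33.7 at the 8-cell stage and 59.1, 63.2 and 75.2 at the blastocyst stage. MRPL3, a homologue of a bacterial protein near the peptidyl transferase centre, had 72.0, 59.5 and 79.2 CPM at the GV stage and 20.7, 13.5 and 14.6 at the MII stage, which did not overlap. Its change was not called (log2 fold change -2.11, SE 0.78, edgeR adjusted p = 0.061), and 1 of the 8-cell pools, which share the model's estimate of its spread, held 1 count of it.

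**Figure D2:**
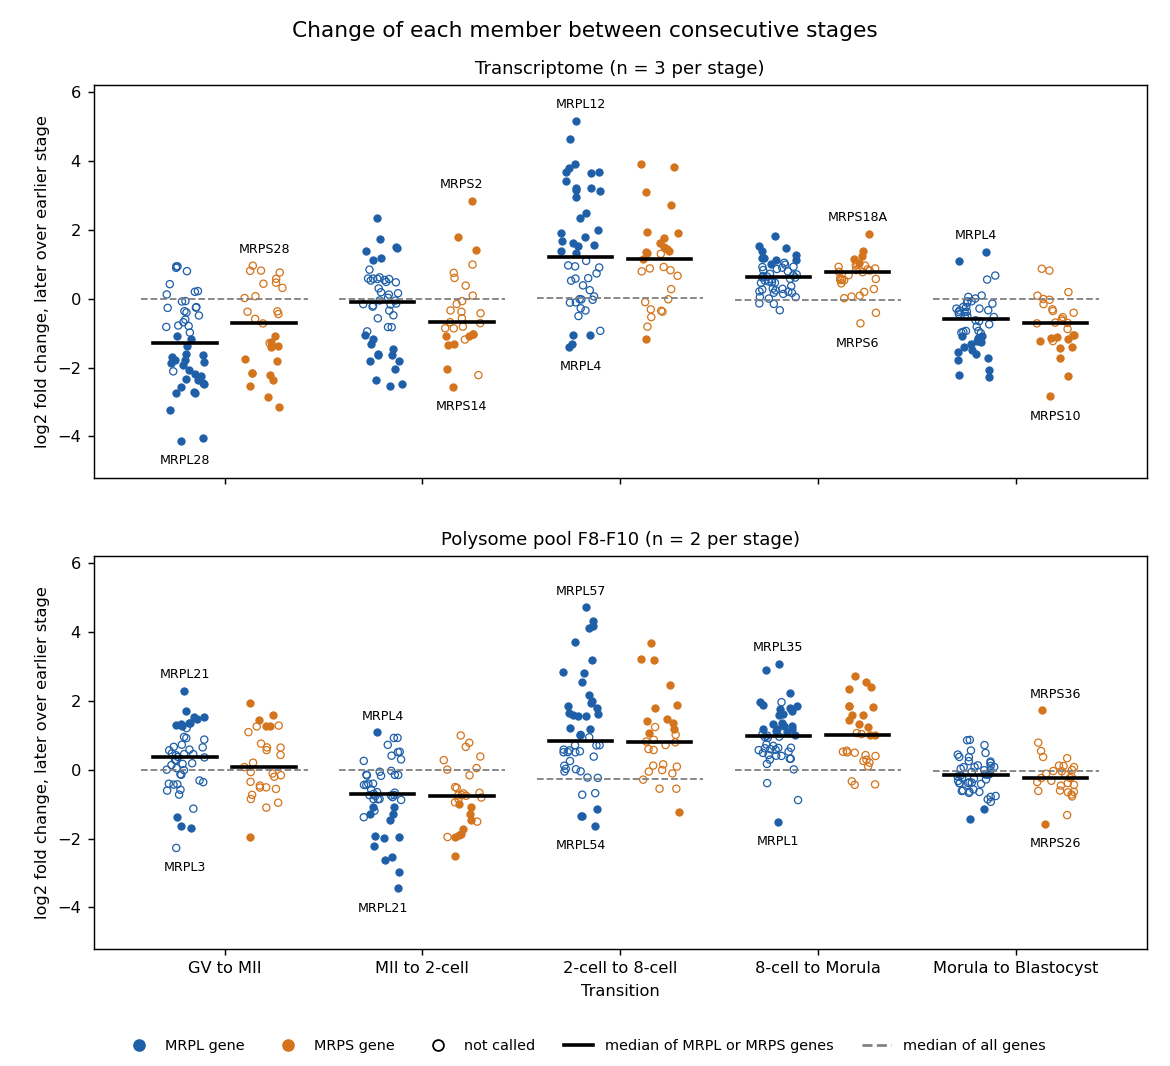
Log2 fold change of each member (points, large subunit and small subunit side by side) at the 5 transitions between consecutive stages, in the transcriptome and in the polysome pools. Filled points passed an adjusted p below 0.05 and a fold above 2, black bars are the medians of the 2 groups and grey dashed lines those of all genes. Transcriptome points lie mostly below 0 from GV to MII oocytes (38 lower, 0 higher), and polysome points do not (4 lower, 15 higher).

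In the polysome pools the stages stood in a different order. The summed level of the members was 11171 to 11722 CPM in the 2 GV pools, 17135 to 20186 in MII, 11133 to 11611 in 2-cell, 14574 to 14808 in 8-cell, 20614 to 31378 in morula and 20347 to 20951 in blastocyst pools. The MII pools thus lay above the GV pools, although the MII transcriptomes lay below the GV transcriptomes. A single gene held a large part of this sum, which is one of read shares without correction for transcript length. MRPL37 made up 18.8% to 18.9% of the members' polysome sum at the GV stage, 33.6% to 33.9% at the MII stage, 33.1% to 33.2% at the 2-cell stage and 10.0% to 10.4% at the 8-cell stage, then 2.02% to 4.80% at the morula stage and 1.92% to 2.21% at the blastocyst stage. In the transcriptomes its share was 0.963% to 8.49%. Without MRPL37, MRPL genes held 63.7% to 70.0% of the remaining polysome sum, and with it 69.4% to 77.7%. The polysome sum without MRPL37 was 9067 to 9512 CPM in GV and 11328.5 to 13401 in MII pools. In 2-cell pools, the lowest, it was 7437 to 7763, and in 8-cell pools, whose range lay within that of MII pools, 13116.5 to 13273. The transcriptome sum without MRPL37 was 9090 to 12520 CPM at the GV stage and 7648 to 9307 at the MII stage, so these ranges overlapped. TMM factors were 1.199 and 1.105 for the GV pools and 0.8649 and 0.8914 for the MII pools. A factor above 1 lowers the polysome sum and a factor below 1 raises it, and sums on library totals were not taken.

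From GV to MII oocytes 15 members rose and 4 fell in polysomes, against 3.03% and 2.33% of all genes, and the median member changed by 0.29. The total of 19 was 10 without the C transcriptomes. These enter this comparison only through steps shared by all libraries, such as the filter, the scaling and the spread. With library totals as the scale, which moved the median of all genes by -0.28, 7 members rose and 5 fell and the median member changed by -0.10. MRPL21 had 63.0 and 75.5 CPM in the GV pools and 253 and 422 in those of MII oocytes (log2 fold change 2.29, SE 0.35, edgeR adjusted p = 4.9e-04), and MRPS18A had 72.5 and 81.9 and then 241 and 351 (log2 fold change 1.94, SE 0.25, edgeR adjusted p = 1.6e-04). The pools of both genes were apart between the stages. MRPS2 had 864 and 1043 CPM in the GV and 215 and 276 in the MII pools (log2 fold change -1.96, SE 0.36, edgeR adjusted p = 0.0021), and MRPL28 had 348 and 374 and then 83.3 and 141 (log2 fold change -1.69, SE 0.37, edgeR adjusted p = 0.0077). MRPL35, a small homologue of a bacterial large-subunit protein, also fell (log2 fold change -1.64, edgeR adjusted p = 0.02).

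In 8 members the same transition went down in the transcriptome and up in polysomes, which is 10.4% of the members and 0.520% of all genes tested. They were MRPL11, MRPL37, MRPL48, MRPL51, MRPS7, MRPS11, MRPS18B and MRPS34. MRPL37 had 843, 699 and 821 CPM in GV and 106, 144 and 112 in MII transcriptomes (log2 fold change -2.70, SE 0.22, edgeR adjusted p = 4.0e-09), and 2104 and 2210.0 in GV and 5807 and 6785 in MII pools (log2 fold change 1.55, SE 0.25, edgeR adjusted p = 7.6e-04). MRPS34, a mitochondria-specific protein of the small subunit, had 8.73, 9.64 and 6.08 and then 1.60, 1.52 and 1.07 CPM in transcriptomes (log2 fold change -2.53, SE 0.34, edgeR adjusted p = 6.3e-06), and 34.0 and 36.9 and then 57.7 and 135 in pools (log2 fold change 1.44, SE 0.36, edgeR adjusted p = 0.02). MRPS7, a protein of the head of the small subunit, had 220.2, 262 and 191 and then 67.0, 73.9 and 61.1 CPM in transcriptomes and 247 and 232 and then 780.0 and 647 in pools. MRPL11, at the base of the stalk, had 86.3, 122 and 97.4 and then 34.2, 26.5 and 23.2 CPM in transcriptomes and 78.7 and 73.5 and then 195 and 193 in pools. For MRPS11, a protein of the platform of the small subunit, transcriptomes had 113, 173 and 98.4 and then 26.0, 44.2 and 39.0 CPM, and pools 120.1 and 110.3 and then 277 and 284. In all 5 of these genes every MII transcriptome lay below every GV transcriptome while both MII pools lay above both GV pools. The genes were chosen by their calls on these same values, so this separation adds no support to the calls.

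**Figure D3:**
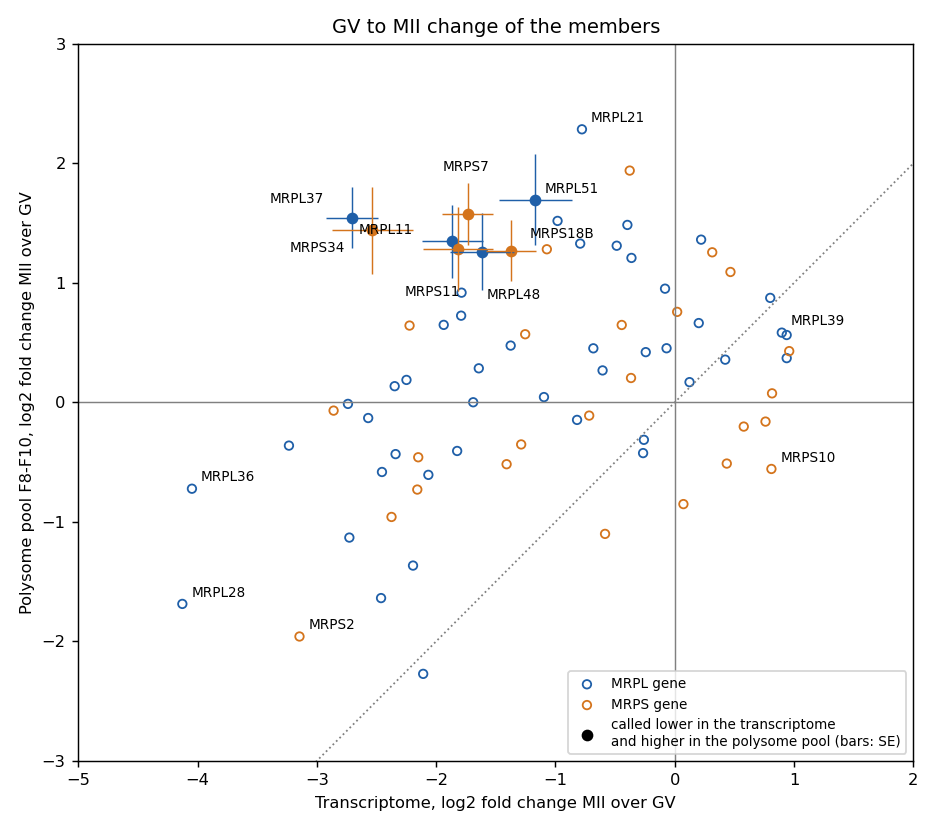
Log2 fold change from GV to MII oocytes of each member in the transcriptome (horizontal axis) and in the polysome pools (vertical axis), with a dotted line of equal change. The 8 named, filled points passed the test downward in the transcriptome and upward in polysomes, and bars are standard errors derived from the test statistic. Most points lie above the line of equality.

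The change of the polysome-to-transcriptome ratio between consecutive stages was tested as an interaction in the same model. From GV to MII oocytes the ratio rose in 36 members and fell in 1, whereas it rose in 7.14% and fell in 3.5% of all genes, and the median member changed by 1.42. The 36 were 27 of the 48 MRPL genes and 9 of the 29 MRPS genes. The difference between the 2 log2 fold changes was 4.25 in MRPL37 (SE 0.34, edgeR adjusted p = 5.7e-08) and 3.98 in MRPS34 (SE 0.50, adjusted p = 1.3e-05), and the member that fell was MRPS10 (-1.37, adjusted p = 0.013). Other fractions were set against the same transcriptomes in the same way. With the free RNA of F1 and F2 the ratio rose in 20 members and fell in 0 (2.55% and 1.68% of all genes), and with the monosomes of F3 to F5 in 35 and 2 (6.79% and 6.74%).

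From MII oocytes to 2-cell embryos, 22 members fell in polysomes and 1 rose (5.14% and 3.37% of all genes), with a median log2 fold change of -0.74, and 10 of them also fell in the transcriptome (falls in both, 13.0% of the members and 2.22% of all genes). With library totals as the scale, 14 fell and 4 rose. MRPL21 had 253 and 422 CPM in MII and 32.1 and 30.2 in 2-cell pools (log2 fold change -3.44, SE 0.37, edgeR adjusted p = 6.1e-06). MRPL23, another protein of the exit tunnel, had 58.1 and 133 and then 12.7 and 11.8 (log2 fold change -2.96, SE 0.47, edgeR adjusted p = 4.3e-04). The 1 member that rose was MRPL4, with 143 and 246 and then 398 and 427 CPM (log2 fold change 1.08, SE 0.34, edgeR adjusted p = 0.048). The ratio to the transcriptome fell in 6 members and rose in 0 (1.08% and 0.725% of all genes), and the number called was 0 without the C transcriptomes. At an unadjusted p below 0.05 the ratio of 24 members differed, a count not taken over all genes. DESeq2 called 0 higher and 10 lower. MRPS34 and MRPL37 were again the extremes, now with a fall by 2.46 and by 2.22 on the log2 scale (edgeR adjusted p = 0.015 and 0.0013).

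Between 2-cell and 8-cell embryos 33 members rose and 5 fell in polysomes (21% and 25.2% of all genes), with a median of 0.82 against -0.26 over all genes. Of these, 28 rose in the transcriptome too, and rises in both made up 36.4% of the members and 16.2% of all genes. MRPL57 had 7.59 and 6.28 CPM in the 2-cell and 213 and 151 in the 8-cell pools (log2 fold change 4.72, SE 0.55, edgeR adjusted p = 3.7e-07). MRPL1, the protein of the L1 stalk next to the exit site of tRNA, had 3.28 and 2.86 and then 86.4 and 37.3 (log2 fold change 4.33, SE 0.57, edgeR adjusted p = 1.9e-06). MRPL54 went the other way, from 333 and 243 to 90.8 and 96.0 CPM (log2 fold change -1.62, SE 0.33, edgeR adjusted p = 3.9e-04), and so did MRPL52 (log2 fold change -1.35, edgeR adjusted p = 0.0032) and MRPL37 (-1.33, adjusted p = 1.7e-04). MRPS14 rose in the transcriptome, from 41.2, 42.6 and 51.3 to 91.7, 144 and 117 CPM, and fell in polysomes, from 73.6 and 69.6 to 37.2 and 23.5, the only member to do so. The ratio fell in 12 members and rose in 1 (8.72% and 3.45% of all genes), most in MRPS14 (-2.62, edgeR adjusted p = 0.0052) and MRPL35 (-2.22, adjusted p = 0.0083), and it rose in MRPS10 (1.08, adjusted p = 0.048). Without transcriptome C the ratio of 2 members was called. For F1 and F2 against the same transcriptomes it fell in 34 members and rose in 2 (18.5% and 8.86% of all genes).

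From 8-cell embryos to morulae 35 members rose and 1 fell in polysomes (18.5% and 17.7% of all genes), with a median log2 fold change of 1.003, and 11 of them rose in the transcriptome as well (rises in both, 14.3% of the members and 4.14% of all genes). Without replicate A or B, 1 pool per stage was left, so no count is given for those fits. MRPL35 had 10.9 and 18.2 CPM in 8-cell and 193 and 51.4 in morula pools (log2 fold change 3.07, SE 0.44, edgeR adjusted p = 1.5e-05), and MRPL54 had 90.8 and 96.0 and then 918 and 477 (log2 fold change 2.90, SE 0.35, edgeR adjusted p = 2.1e-06). MRPL1 fell, from 86.4 and 37.3 to 19.6 and 23.9 CPM (log2 fold change -1.51, SE 0.50, edgeR adjusted p = 0.022). Its 8-cell pools stood above those of 2-cell embryos and of morulae. For MRPL35 and MRPL54, morula pool A was well above morula pool B, and both lay above the 8-cell pools. The ratio to the transcriptome rose in MRPL35 (2.54, edgeR adjusted p = 0.0027), in MRPS28 (1.88, adjusted p = 0.024) and in 1 further member, and fell in 0 (7.06% and 5.41% of all genes). For this change of the ratio, DESeq2 called 9 higher and 1 lower and library totals gave 1 higher and 1 lower. At an unadjusted p below 0.05 it differed in 13, a count not taken over all genes.

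Polysome levels moved least from morulae to blastocysts, where 1 member rose and 3 fell (5.79% and 8.13% of all genes). MRPS36, which is also counted as a component of 2-oxoglutarate dehydrogenase, had 14.4 and 6.53 CPM in morula and 26.8 and 41.9 in blastocyst pools (log2 fold change 1.72, SE 0.48, edgeR adjusted p = 0.019). MRPS26 had 458 and 98.8 CPM and then 70.6 and 117 (log2 fold change -1.57, SE 0.49, edgeR adjusted p = 0.036), so that its pools overlapped and only morula pool A was high. MRPL15 had 257 and 154 and then 82.1 and 70.0 (log2 fold change -1.44, SE 0.32, edgeR adjusted p = 0.0048). The third that fell was MRPL4, which rose in the transcriptome and fell in polysomes, with 424 and 235 and then 134 and 162 CPM (log2 fold change -1.15, SE 0.34, edgeR adjusted p = 0.027). Without the C transcriptomes 1 member was called in place of these 4. Leaving out replicate A or B left 1 pool per stage, so no count of those fits is given. The ratio rose in 12 members and fell in 1 (6.04% and 6.24% of all genes). It rose most in MRPS35 (3.04, edgeR adjusted p = 2.7e-04) and MRPL32 (2.78, adjusted p = 6.2e-04), and it fell in MRPL4 (-2.52, adjusted p = 8.3e-04). Without the C transcriptomes the number was 5.

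Within a stage, polysome pools were compared with the transcriptome at an adjusted p below 0.05. In GV oocytes 19 members were higher and 32 lower in polysomes (22.2% and 17.7% of all genes), with a median log2 ratio of -0.54. In MII oocytes 41 were higher and 20 lower (30.8% and 26.7%; median 1.33), and at the 2-cell stage 37 and 18 (29.1% and 21.9%; median 0.64). The GV stage was thus the one at which more members lay below the transcriptome than above it. In 8-cell embryos the counts were 35 higher and 24 lower (28% and 31%; median 0.34 against -0.26 over all genes) and at the morula stage 38 and 15 (26.5% and 25.2%; median 0.79). In blastocysts 45 were higher and 5 lower (20% and 20.1%; median 1.21). With library totals as the scale, which moved the median of all genes by -0.34 at each of the last 2 stages, the counts were 30 and 23 at the morula stage and 41 and 13 at the blastocyst stage, where DESeq2 gave 45 and 12.

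In 19 members polysomes were higher than the transcriptome at all 6 stages, as in 9.92% of all genes, and in 4 they were lower at all 6, as in 5.78%. The 5 with the largest mean ratio among the 19 were MRPS2, MRPS34, MRPL28, MRPL4 and MRPL54. MRPS2 stood out most. It had 864 and 1043 CPM in the polysome pools and 36.4, 24.4 and 25.6 in the transcriptomes of GV oocytes, 215 and 276 against 3.32, 4.26 and 2.14 in those of MII oocytes, and 501 and 492 against 60.3, 56.8 and 80.4 in those of blastocysts. Its log2 ratio was 5.05 at the GV stage (SE 0.35, edgeR adjusted p = 3.0e-10), 6.23 at the MII stage, 4.38 and 5.32 in 2-cell and 8-cell embryos, 4.02 at the morula stage and 2.91 at the blastocyst stage. MRPS34 reached 6.10 at the MII stage (adjusted p = 8.0e-12) and was lowest, at 2.12, at the GV stage. Over the 6 stages the log2 ratio of MRPL28 ran from 2.75 to 5.19, that of MRPL4 from 1.58 to 4.75, and that of MRPL54 from 2.30 to 5.17. Other extremes of single stages were MRPL38 at the GV stage (2.81), MRPL12 at the 2-cell stage (3.95), and MRPL36 and MRPS12, a protein of the decoding centre, at the blastocyst stage (5.27 and 3.59), with edgeR adjusted p-values up to 5.3e-08.

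The 4 members that were lower at every stage were MRPL1, MRPL33, MRPL42 and MRPL50. MRPL1 had 11.7 and 9.08 CPM in the GV pools and 77.0, 105 and 93.0 in the GV transcriptomes (log2 ratio -3.14, edgeR adjusted p = 3.0e-05), and 19.6 and 23.9 against 211, 248 and 299 in those of morulae (-3.54, adjusted p = 6.7e-06). MRPL42 had its lowest ratio at the 8-cell stage (-3.14) and its highest at the blastocyst stage (-1.12). Relative to the median member of each stage, MRPL39 had the lowest mean. It had 11.5 and 54.1 CPM in the MII pools and 493, 382 and 489 in the MII transcriptomes, with log2 ratios of -3.48, -3.79, -3.74, -2.75 and -2.79 from GV oocytes to morulae (edgeR adjusted p up to 1.8e-05). In blastocysts its ratio was -0.42 (adjusted p = 0.42). Lower extremes of single stages were also MRPS36 at the MII stage (-3.47), MRPS10 at the MII and 2-cell stages (-3.16 and -3.53), MRPL50 and MRPL35 at the 8-cell stage (-3.06 and -3.05), MRPS35 at the morula stage (-2.74) and MRPL33 at the blastocyst stage (-1.66). In 9 members the ratio was called in both directions at different stages, and in MRPS21 at none, counts that were not taken over all genes.

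The free RNA of F1 and F2 was set against the same transcriptomes, so the following counts share their controls with those of F8 to F10 and are only given side by side. In F1 and F2, 29 members were higher and 30 lower at the GV stage (30.2% and 24.4% of all genes), 47 and 16 at the MII stage (31.4% and 26.8%) and 42 and 9 at the 2-cell stage (25% and 19.2%). They were 22 and 31 at the 8-cell stage (29.1% and 35.2%), 25 and 22 at the morula stage (22.2% and 25.2%) and 23 and 11 at the blastocyst stage (9.56% and 15.8%). MRPS2 had a log2 ratio of 6.32 in F1 and F2 of GV oocytes, 5.97 in those of MII oocytes and 0.71 in those of blastocysts, next to 5.05, 6.23 and 2.91 in polysomes. Scaled over all 138 libraries, its mean level in F1 and F2 was 2051 and 2421 CPM in GV gradients A and B, and that in F8 to F10 was 839.6 and 969.7. MRPL39 had log2 ratios of -4.32, -4.56 and -1.15 in F1 and F2 of GV oocytes, MII oocytes and blastocysts. In oocytes the high ratio of MRPS2 and the low ratio of MRPL39 were thus present in free RNA as well as in polysomes. By stage, ratios of F1 and F2 and of F8 to F10 had the same sign in 80.5% to 87.0% of the members. Among all genes this share was 69.2% to 89.3%. Fraction RNA was extracted from gradients of cleared lysates and transcriptomes came from pools of whole oocytes or embryos. The part of this difference in the ratios was not tested.

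**Figure D4:**
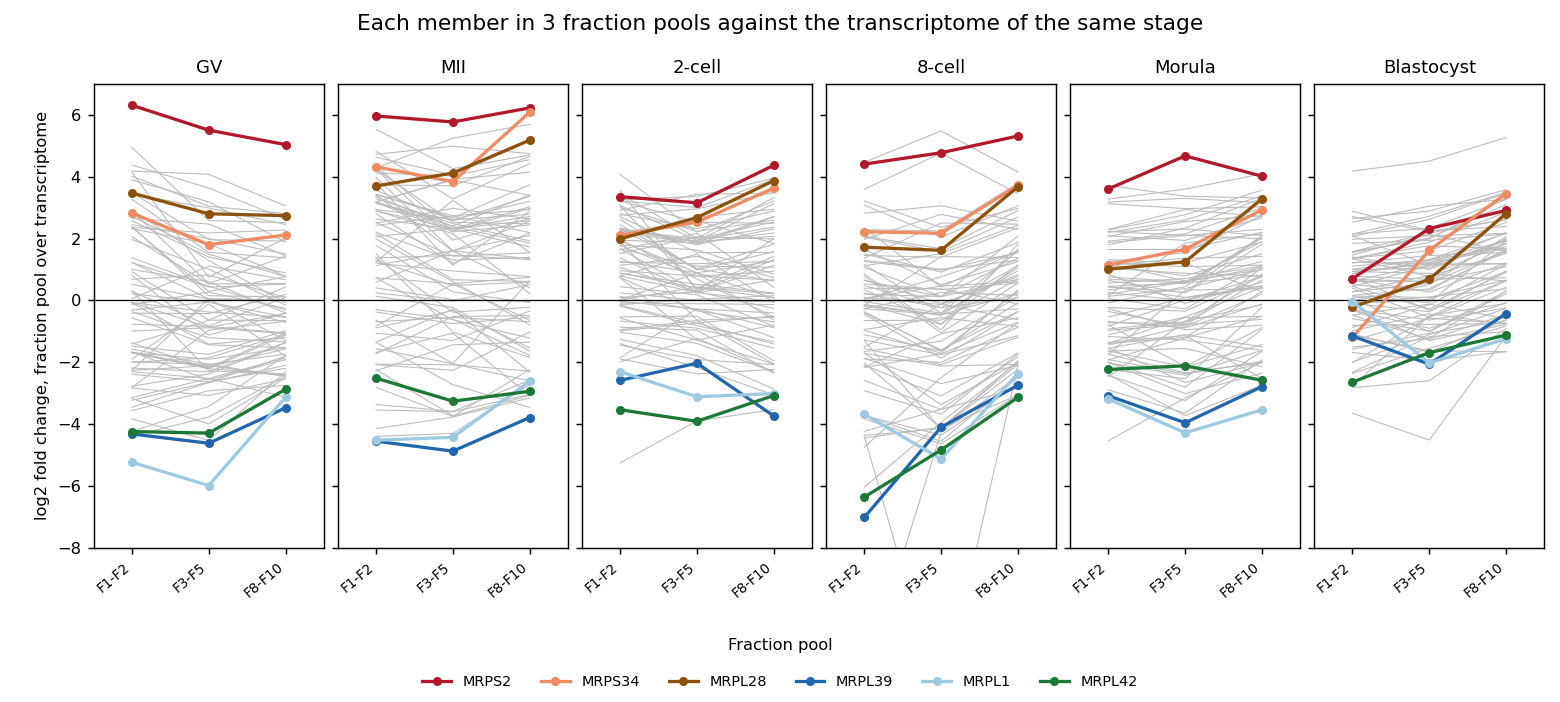
Log2 ratio to the transcriptome of each member (lines) in the free RNA of F1 and F2, the monosomes of F3 to F5 and the polysomes of F8 to F10, by stage. MRPS2, MRPS34, MRPL28, MRPL39, MRPL1 and MRPL42 are coloured. In GV oocytes MRPS2 lies far above 0 (6.32 in free RNA and 5.05 in polysomes) and MRPL39 far below it (-4.32 and -3.48). Below the end of the axis lie 2 points of 8-cell embryos, MRPS22 in F3 to F5 (-13.08) and MRPS10 in F1 and F2 (-12.23).

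The gradient itself was read from the fractions without the transcriptome. Spearman's rho of log2(CPM + 1) with fraction number was taken over F3 to F10 of both gradients (16 libraries per stage), with a permutation p adjusted over all genes of the stage. Fractions of a gradient are not independent samples, so the p describes the order in these 2 gradients. In GV oocytes 28 members rose toward the heavy fractions and 11 fell (17% and 19.8% of all genes), with a median rho of 0.25 against -0.08 over all genes, or 34 and 7 with library totals as the scale. In MII oocytes 10 rose and 9 fell (6.87% and 12.5%), and at the 2-cell stage 16 and 13 (9.54% and 10.8%). After that the calls were nearly all rises. They were 18 and 2 at the 8-cell stage (5.85% and 10.8%; 13 and 4 with relative log expression factors, RLE), 2 and 0 at the morula stage (0.895% and 0.86%) and 17 and 0 at the blastocyst stage (5.65% and 1.94%). Median rho was 0.44, 0.29 and 0.47 at these 3 stages, against -0.11, -0.01 and 0.15 over all genes. With 8 libraries of 1 gradient the numbers called were 0 to 20, and they were 20 and 6 at the GV stage, 0 and 3 at the MII stage, 15 and 0 at the 2-cell stage and 5 and 0 at the 8-cell stage without gradient A and without gradient B, and 0 at the morula and blastocyst stages.

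Without a test, the mean of F8 to F10 was above that of F3 to F5 in both gradients for 39 members at the GV stage, 36 at the MII stage, 30 at the 2-cell stage, 61 at the 8-cell stage, 36 at the morula stage and 55 at the blastocyst stage. These were 50.6%, 46.8%, 39.0%, 79.2%, 46.8% and 71.4% of the members, and among all genes the shares were 35.0%, 32.3%, 36.5%, 29.9%, 27.1% and 37.2%. The median member differed by 1.12 on the log2 scale at the 8-cell stage and by 0.06 at the 2-cell stage. An edgeR test of F8 to F10 against F3 to F5, with the 2 gradients as replicates and as a block, called 0, 0, 0, 13, 1 and 1 members from GV oocytes to blastocysts (0.269%, 0.202%, 0%, 8.74%, 1.41% and 1.31% of all genes). At an unadjusted p below 0.05 there were 12, 16, 19, 40, 15 and 20 members, and the share of all genes at that limit was not taken. Of the 13 at the 8-cell stage 11 were higher in F8 to F10, and the 2 that were lower were MRPL4 and MRPL37. MRPL28 was the 1 member called at the morula stage and also the 1 at the blastocyst stage.

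MRPL20, a protein of the large subunit with a bacterial homologue, had the highest rho at the GV stage. Scaled with TMM factors over all 138 libraries, it had 195, 223, 393 and 470.5 CPM in F3, F5, F8 and F10 of gradient A and 146, 211, 423 and 549 in those of gradient B (rho = 0.95, permutation test, adjusted p = 2.3e-04). MRPL42 followed (rho = 0.94, permutation test, adjusted p = 2.3e-04). MRPL4 and MRPL37 fell, with MRPL4 at 471, 333, 221 and 179 CPM in the same 4 fractions of gradient A and 309, 258, 176 and 174 of gradient B (rho = -0.79, permutation test, adjusted p = 0.0038), as did MRPL44, a protein related to RNase III (rho = -0.76, permutation test, adjusted p = 0.0054). In MII oocytes MRPS16 rose, from 55.2 and 50.8 CPM in F3 of the 2 gradients to 486 and 568 in F10 (rho = 0.89, permutation test, adjusted p = 8.7e-04), and so did MRPL18 (rho = 0.83, permutation test, adjusted p = 0.0035). MRPL22 fell, from 172 and 234 to 49.7 and 60.2 CPM (rho = -0.86, permutation test, adjusted p = 0.0019), with MRPS15 and MRPS22 next to it (rho -0.85 each). In the members that fell, the heavy end of the gradient thus held a smaller share than the monosome end.

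In 2-cell embryos MRPS2 rose, from 149 and 176 CPM in F3 of the 2 gradients to 527 and 482 in F10 (rho = 0.88, permutation test, adjusted p = 0.0033), and MRPL36 had a rho of 0.82. MRPS9 fell, from 86.5 and 68.0 to 13.9 and 10.8 CPM (rho = -0.92, permutation test, adjusted p = 0.0023), and so did MRPL13 and MRPL45, a protein near the tunnel exit (rho -0.88 each). In 8-cell embryos MRPL28 rose from 216 and 213 CPM in F3 to 1069.6 and 1311 in F10 (rho = 0.92, permutation test, adjusted p = 8.4e-04), next to MRPS24 (rho 0.87). The 2 that fell were MRPL37, from 4441 and 3566 to 671 and 1079.9 CPM (rho = -0.96, permutation test, adjusted p = 8.4e-04), and MRPL4 (rho -0.85). Both had also fallen at the GV stage. The calls at the morula stage were MRPL24, of the exit tunnel (rho = 0.83, permutation test, adjusted p = 0.023), and MRPL28 (rho = 0.82, permutation test, adjusted p = 0.026). In blastocysts MRPS34 went from 55.3 and 132 CPM in F3 to 386 and 364 in F10 (rho = 0.86, permutation test, adjusted p = 0.0043), and MRPL2 had the same rho.

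**Figure D5:**
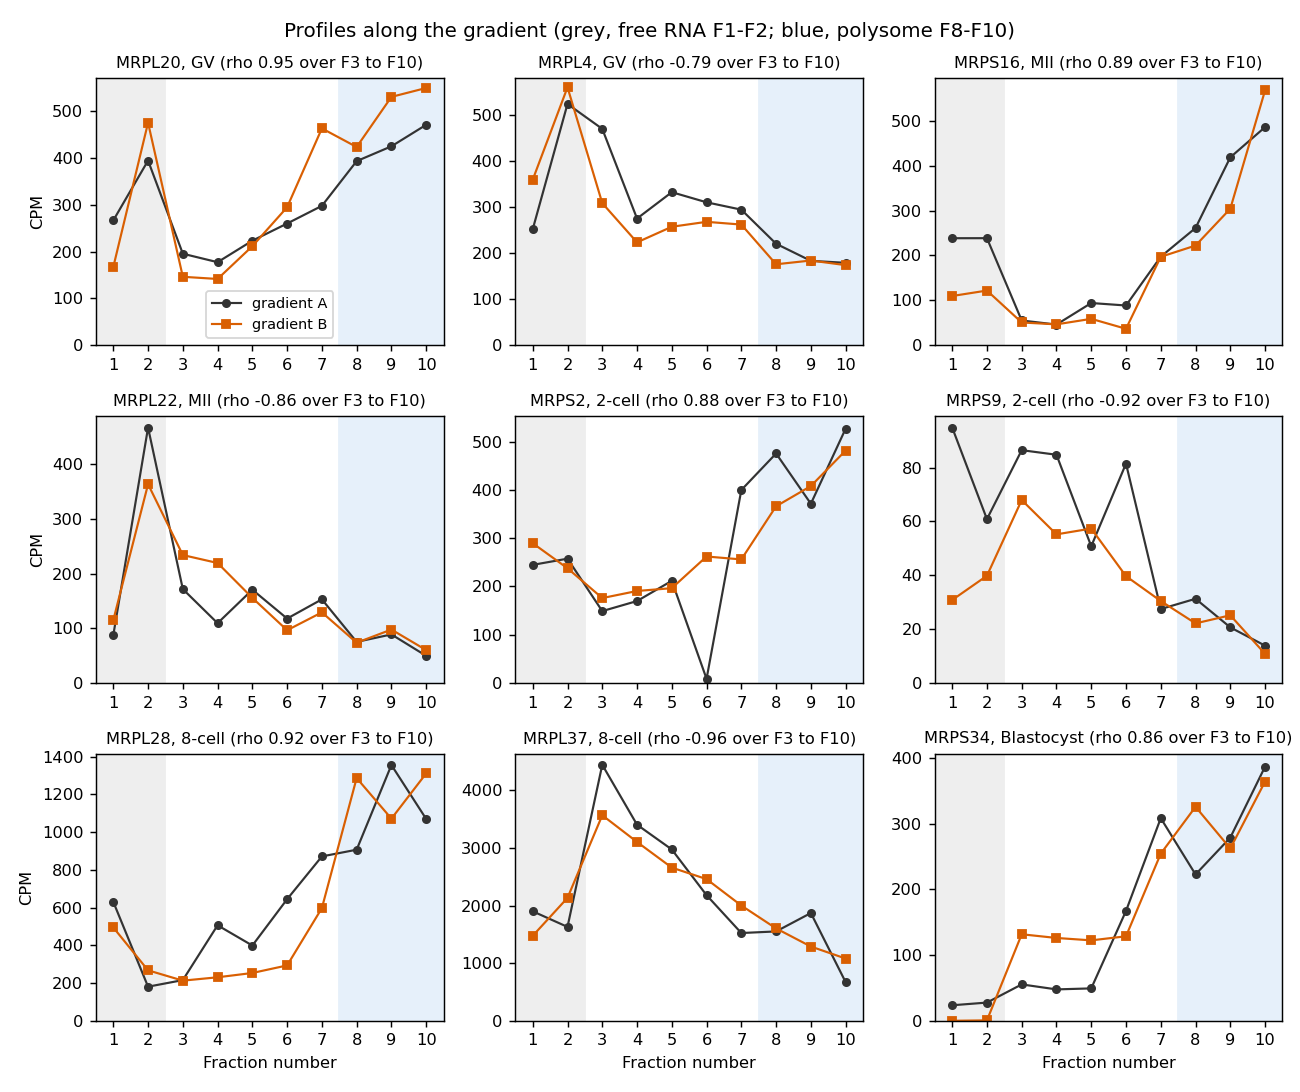
CPM (TMM over 138 libraries) in F1 to F10 of gradients A and B for 9 pairs of member and stage with the highest or lowest rho of that stage. MRPL20 at the GV stage, MRPS16 at the MII stage, MRPS2 at the 2-cell stage, MRPL28 at the 8-cell stage and MRPS34 at the blastocyst stage climb toward F10, while MRPL4, MRPL22, MRPS9 and MRPL37 go down.

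Over the 6 stages, MRPL28 and MRPS34 rose along the gradient at 4 stages each and MRPS22 fell at 3. In addition, 10 members rose at some stages and fell at others, and 9 had no call, counts that were not taken over all genes. MRPL4 and MRPL37 thus combined a level above the transcriptome in polysomes at all 6 stages with a fall from F3 to F10 at the GV and 8-cell stages. MRPL1 and MRPL42 combined a level below the transcriptome at all 6 stages with a rise at the GV stage (rho 0.92 and 0.94). In MRPL1, gradient A had 1.08 and 20.7 CPM in F3 and F10 of GV oocytes and gradient B 1.02 and 13.4, against 87.0 to 114 in the transcriptomes on the same scale. These fractions thus lay below all 3 transcriptomes even at the heavy end.

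The subunits were set side by side without a test, since their genes share every library. Medians of the ratio of polysomes to transcriptome were higher for MRPL than for MRPS genes at all 6 stages, with -0.48 and -0.68 at the GV stage, 1.64 and -0.04 at the MII stage, 0.80 and 0.07 at the 2-cell stage, 0.69 and -0.27 at the 8-cell stage, 0.90 and 0.47 at the morula stage and 1.60 and 0.93 at the blastocyst stage. In MII oocytes 30 of 48 MRPL genes were higher and 12 lower, against 11 and 8 of 29 MRPS genes. Interquartile ranges of both groups overlapped at every stage (-1.53 to 1.39 and -1.80 to 0.19 for GV oocytes). By mean fraction level, MRPL medians exceeded MRPS medians at all 6 stages for free RNA and for monosomes over the transcriptome too. For free RNA they were -0.08 and -0.66 at GV, and 2.26 and 1.01 at MII. For F8 to F10 over F3 to F5, MRPL medians were lower at every stage but the 8-cell (0.23 and 0.55 for GV oocytes). Median log2 fold changes of the MRPL and MRPS genes in the transcriptome were -1.27 and -0.72 from GV to MII oocytes, -0.0952 and -0.68 from MII oocytes to 2-cell embryos, 1.22 and 1.15 from 2-cell to 8-cell embryos, 0.62 and 0.77 from 8-cell embryos to morulae and -0.58 and -0.70 from morulae to blastocysts. In polysomes they were 0.36 and 0.0757, -0.72 and -0.76, 0.83 and 0.82, 0.97 and 1.01, and -0.15 and -0.24 over the same transitions. The symbols do not match the structure in every case, because MRPS18A and MRPS30 sit in the large subunit of the mammalian mitochondrial ribosome. Proteins of this ribosome with other names, such as DAP3, PTCD3 and CHCHD1, lie outside the rule. With MRPS18A and MRPS30 counted in the large subunit and MRPS36 in neither, the medians of the ratio were -0.48 and -0.61 at the GV stage, 1.64 and 0.09 at the MII stage, 0.80 and -0.10 at the 2-cell stage, 0.69 and -0.32 at the 8-cell stage, 0.90 and 0.64 at the morula stage and 1.60 and 0.94 at the blastocyst stage.

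The paralogues MRPS18A, MRPS18B and MRPS18C share a number, and they had different profiles. The ratio of polysomes to transcriptome was higher at all 6 stages for MRPS18A (0.89 to 3.21 on the log2 scale), higher at 3 stages and called lower at 0 for MRPS18B (-0.54 to 2.10), and lower at 5 for MRPS18C (-2.48 to -0.92). In MII oocytes MRPS18A had 241 and 351 CPM in pools and 31.6, 33.4 and 31.0 in transcriptomes, MRPS18B 589 and 563 against 127, 143 and 134, and MRPS18C 40.5 and 78.9 against 177, 138 and 101. The pools lay above all 3 transcriptomes in MRPS18A and MRPS18B and below them in MRPS18C. Reads shared between paralogues were assigned by the estimation of the counts, so values of such genes are less certain.

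Other genes of mitochondrial translation were counted in the same tests. Of 5 proteins of the mitochondrial ribosome with other names, 1 rose and 3 fell from GV to MII oocytes in the transcriptome and 4 rose and 0 fell from 8-cell embryos to morulae in polysomes. Of all genes, 6.61% rose and 10.5% fell in the first of these comparisons, and 18.5% rose and 17.7% fell in the second. Of 13 tested of 15 listed factors of mitochondrial translation, 0 rose and 2 fell in the first, and 5 rose and 1 fell in the second. Of 27 tested of 29 listed genes for assembly of the mitochondrial ribosome, 1 rose and 7 fell in the first, and 7 rose and 2 fell in the second. Between 2-cell and 8-cell embryos in the transcriptome, where 38 of the 77 members and 26.6% of all genes rose and 23.5% of all genes fell, 1 rose and 0 fell among the 5 proteins, 5 rose and 4 fell among the factors and 10 rose and 7 fell among the assembly genes. From GV to MII oocytes the polysome-to-transcriptome ratio rose in 2 and fell in 0 of the 5 proteins (median change 0.46). It rose in 2 and fell in 1 of the factors (median -0.70), and rose in 9 and fell in 0 of the assembly genes (median 1.04). Of all genes, it rose in 7.14% and fell in 3.5%. In MII oocytes 3 factors were higher and 8 lower in polysomes than in the transcriptome (30.8% and 26.7% of all genes).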

How the data were processed

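The authors prepared all libraries with a Smart-seq v4 kit, which primes from poly(A) tails, ran Salmon with Ensembl's cattle annotation, and deposited its expected counts in 1 table without normalization. Of these values 11.7% are not whole. The paper names the genome ARS-UCD1.2 and the submitters' processing notes UMD3.1. No coordinates were used. Groups came from the sample labels and 0 columns stayed unmapped. Of 78 replicate pairs compared, 0 held identical values. Nothing says that oocytes of a letter come from separate animals, so p-values measure the spread between these pools.

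Counts were rounded and F8 to F10 summed per gradient. Transitions, the ratio of polysomes to transcriptome and its change (interaction) were contrasts of 1 edgeR quasi-likelihood model of 30 libraries in 12 groups (TMM, filterByExpr, 14612 genes), two-sided, with Benjamini-Hochberg adjustment at 0.05 and a fold above 2 for transitions. SE is the absolute log2 fold change divided by the square root of the F statistic, so it is derived from the test. The study used the likelihood ratio test, kept as an alternative. Trends were Spearman's rho over F3 to F10 with 100000 permutations, with a pseudocount of 1, where the mean CPM was 1 or more. Named genes were, in each comparison, the 2 largest called changes per direction and up to 3 against the majority, the extremes of the ratio over stages, opposite calls, the lowest and highest levels (left out of the text, since no transcript lengths were used), MRPS18A to MRPS18C and genes without a transcriptome call. MRPL1 in the gradient and the members called by the test over gradients were named after their values were seen. The members and lists were chosen with earlier results of these data known. Alternatives covered the normalization, the filter, the tool, the pooled fractions, a replicate block and leaving out replicates. Leaving out a letter removed all of its libraries at every stage, and the filter, the scaling and the spread were computed again. Without A or B each stage kept 1 polysome pool, so the spread of those fits came from the transcriptomes alone. On simulated data of 14612 genes, 100 were changed by each of 2 sizes and called at an adjusted p below 0.05 alone. Changes of 3 on the log2 scale were called in 58% of these genes from GV to MII transcriptomes, and changes of 1 in 1%. Far fewer genes changed there than were called in the data, so these shares do not measure how often changes are missed here. Tools were R 4.3.3, edgeR 4.0.16, limma 3.58.1, DESeq2 1.42.0, Python 3.11.15, numpy 2.4.6, pandas 2.3.3, scipy 1.17.1 and matplotlib 3.10.9.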

Additional observations from a re-analysis of the deposited data

Results flagged for a closer look

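The results below were set apart because the change in polysomes differed from that in the transcriptome in the interaction test of the edgeR model at an adjusted p below 0.05. The ratio of polysomes to transcriptome changed in 37 members from GV to MII oocytes, with log2 differences of 4.25 in MRPL37, 3.98 in MRPS34 and -1.37 in MRPS10. It rose in 46.8% and fell in 1.30% of the members, against 7.14% and 3.5% of all genes. It changed in 6 members from MII oocytes to 2-cell embryos, with -2.46 in MRPS34 and -2.22 in MRPL37. Here it rose in 0% and fell in 7.79% of the members, against 0.725% and 1.08% of all genes. From 2-cell to 8-cell embryos it changed in 13, with 1.08 in MRPS10, -2.62 in MRPS14 and -2.22 in MRPL35. These were 1.30% of the members rising and 15.6% falling, against 3.45% and 8.72% of all genes. The ratio changed in 3 from 8-cell embryos to morulae, among them MRPL35 (2.54) and MRPS28 (1.88). These were 3.90% of the members rising and 0% falling, smaller shares than among all genes (7.06% and 5.41%). From morulae to blastocysts it changed in 13, with 3.04 in MRPS35, 2.78 in MRPL32 and -2.52 in MRPL4. Here 15.6% of the members rose and 1.30% fell, against 6.04% and 6.24% of all genes.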

How the results depend on the processing

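Of the counts of called members, 19 of 21 stayed within 1.5 times of the reported value with DESeq2, 20 of 21 with the likelihood ratio test, 26 of 27 without the filter on low counts, and 27 of 27 without the 3 fractions in which fewer than 60% of the stage's median number of genes were detected. Counts and directions that moved are given here, and the cause was not tested unless the setting itself removes samples. With library totals, 29 members changed in the transcriptome from MII oocytes to 2-cell embryos (20 higher and 9 lower, the opposite balance), 12 in polysomes from GV to MII oocytes and 23 from 8-cell embryos to morulae, and the trend was called in 16 members at the MII stage (7 rising and 9 falling) and 28 at the blastocyst stage. With RLE factors the trend was called in 19 members at the MII stage (9 and 10) and 30 at the 2-cell stage (14 and 16), so its balance turned at both stages. DESeq2 called a changed ratio in 10 members from MII oocytes to 2-cell embryos and in 10 from 8-cell embryos to morulae. For the latter, F7 to F10 gave 5 and the likelihood ratio test 5, and without the filter the count from 2-cell to 8-cell embryos was 7.

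With F1 and F2 in place of F8 to F10, 53 members differed from the transcriptome at the 8-cell stage (22 higher and 31 lower), and the ratio changed in 20 from GV to MII oocytes, 36 from 2-cell to 8-cell embryos and 12 from 8-cell embryos to morulae. With F3 to F5 these were 50 at the 8-cell stage (19 and 31), 12 from MII oocytes to 2-cell embryos (7 and 5), 38 from 2-cell to 8-cell embryos and 24 from 8-cell embryos to morulae. Over F1 to F10, the trend was called in 14 members at the MII stage (6 and 8), 14 at the 2-cell stage (3 and 11), 10 at the 8-cell stage, 7 at the morula stage and 31 at the blastocyst stage, and rho turned to -0.0664 for MRPL21, -0.10 for MRPL23 and -0.0604 for MRPL57 at the GV stage, to -0.0906 for MRPL33 at the MII stage and to -0.13 for MRPL21 and -0.0694 for MRPL36 at the 2-cell stage.

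The letters gave no sign of pairing between pools and transcriptomes (r of deviations -0.0652 to 0.00955). With the letter as a replicate block, the ratio changed in 7 members from 2-cell to 8-cell embryos in place of 13, and 26 of 27 counts stayed within 1.5 times. The edgeR test of F8 to F10 against F3 to F5 with the gradient as a replicate block called 0 members at the GV stage, 0 at the MII stage, 0 at the 2-cell stage, 13 at the 8-cell stage, 1 at the morula stage and 1 at the blastocyst stage.

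Leaving out 1 replicate at a time, the numbers called in the transcriptome were 33 to 43, 14 to 32, 45 to 46, 5 to 25 and 14 to 32 over the 5 transitions in order, and in polysomes 10 to 33, 17 to 34, 36 to 42, 20 to 50 and 1 to 19. For the ratio they were 45 to 58, 58 to 65, 49 to 57, 49 to 61, 45 to 62 and 41 to 58 over the 6 stages, for its change 27 to 54, 0 to 23, 2 to 19, 2 to 21 and 5 to 47, and for the trend 6 to 20, 0 to 3, 0 to 15, 0 to 5, 0 to 0 and 0 to 0. Without replicate A, the direction of 3 genes turned. Without replicate A and without replicate B, the polysome change from 8-cell embryos to morulae was -0.0859 and 3.43 for MRPL13 and -0.15 and 1.94 for MRPS21, that of MRPS26 from morulae to blastocysts was 0.24 and -2.69, and its ratio at the morula stage was -0.23 and 1.73. Without gradient B the trend at the MII stage was called in 3 members (1 rising and 2 falling).

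With 2 gradients and 3 transcriptomes per stage, how often small changes are missed was not measured. Transitions with a fold of 2 or less were not called by rule. Zeros were most frequent in 8-cell fractions (5.91% of member values), where MRPL3 and MRPS22 had 1 count in pool A.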
